A study of Rattus norvegicus with 18 samples.

Results

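Vessel walls in muscle hold smooth muscle cells and pericytes, together called mural cells, and 10 genes that mark them were followed here across 18 RNA-seq libraries of rat tibialis anterior, a muscle of the lower hindlimb. The members were the rows whose symbol was Acta2, Myh11, Tagln, Cnn1, Rgs5, Pdgfrb, Cspg4, Notch3, Kcnj8 or Abcc9. All 10 were found, each with a single row, among 30560 entries of the deposited tables. At 9 months of age the groups were 6 libraries of DMD rats that are also p16-null (titled dKO), 3 of DMD rats and 3 of wild-type (WT) rats, and further WT rats of 3 and 18 months gave 3 libraries each. DMD rats are a model of Duchenne muscular dystrophy, in which dystrophin is lost, and the DMD genotype is shared by the dKO rats. The labels give neither the strain, the sex nor the edits that made these animals. RNA came from frozen muscle sections, so a lower level can mean fewer cells of a type or less RNA per cell, which cannot be told apart in bulk tissue.

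Smooth muscle cells wrap arteries and arterioles in rings and contract to set blood flow. Their contractile genes include Acta2 (smooth muscle alpha-actin), Myh11 (smooth muscle myosin heavy chain), Tagln (transgelin, an actin-binding protein) and Cnn1 (calponin, an inhibitor of actomyosin). Pericytes sit on capillaries and depend on PDGF-BB, which endothelial cells release and the receptor encoded by Pdgfrb binds. Cspg4 encodes the NG2 proteoglycan on their surface, Notch3 a Notch receptor of mural cells and Rgs5 a regulator that shortens signals of G protein-coupled receptors. Kcnj8 (Kir6.1) and Abcc9 (SUR2) encode the pore and the regulatory subunit of the ATP-sensitive potassium channel of vascular muscle. Several of these genes are not private to vessel walls: Pdgfrb is also used by fibroblasts, Acta2 by myofibroblasts, and Abcc9 by muscle fibres, where SUR2 pairs with Kir6.2.

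Library totals ran from 9.61 to 21.99 M estimated counts, and the members held between 28 counts (Cnn1) and 4291 counts (Rgs5) in a library. Dmd, the gene for dystrophin, was set beside the genotype label: it stood at 42.5 ± 8.33 CPM in dKO, 36.9 ± 6.65 CPM in DMD and 140.2 ± 26.9 CPM in WT muscle of 9 months (SD, n = 6, 3 and 3), where CPM is the count scaled to a common library total with TMM factors over the 18 libraries. Muscle fibre markers, given below, fell as well, so lower Dmd RNA does not by itself verify the label. Nor does Dmd separate dKO from DMD muscle. Changes are given below as log2 fold changes with their SE, and a change counts as passed when its Benjamini-Hochberg adjusted p from edgeR's quasi-likelihood test over all tested genes was under 0.05. The labels do not say whether the libraries of a group come from separate rats. The p-values cover the spread between libraries only, which may be technical in part. Scaling mattered: TMM put the median change of all tested genes at 0.11 in DMD against WT, while scaling by library totals put it at 0.76 in DMD and 0.72 in dKO muscle against WT.

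Against WT muscle of 9 months, the mural genes moved in different directions in dystrophic muscle. Pdgfrb and Cspg4 were higher, Abcc9 was lower, and the other 7 members did not pass in either dystrophic group. So 3 of 10 members passed in dKO against WT, where 50.2% of all 14801 tested genes did, and 3 of 10 in DMD against WT, where 48.3% did. In the direction of higher levels 27.5% of all genes passed in dKO and 26.4% in DMD muscle, against 2 of the 10 members in each. In the direction of lower levels 22.7% passed in dKO and 21.8% in DMD muscle, against 1 of the 10 members in each. The median log2 fold change of the members was 0.06 in dKO and 0.14 in DMD, beside 0.11 over all genes in both. The 2 comparisons share their 3 WT libraries, so they are not independent of each other.

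By library totals the split of calls over all genes shifted to 54.5% higher and 8.45% lower in dKO, and to 52.0% higher and 8.38% lower in DMD muscle. On that scale 63.0% of all genes passed in dKO and 60.3% in DMD muscle, and 7 of 10 members passed in each, with Acta2, Tagln, Notch3 and Kcnj8 joining the higher genes. On log2(TPM + 1), tested with limma, 66.2% of all genes passed in dKO and 61.5% in DMD muscle, and 6 of 10 members in each, which were these same higher genes without Abcc9. Relative to the median gene the members' values by TMM and by totals were nearly the same: in DMD muscle Pdgfrb lay 1.13 above it on both, Cspg4 0.81 above by TMM and 0.82 by totals, and Abcc9 1.29 below it on both, as differences of log2 fold changes. For this reason the counts of calls are read beside the ratios of genes within a library, which no scaling can alter.

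**Figure D1:**
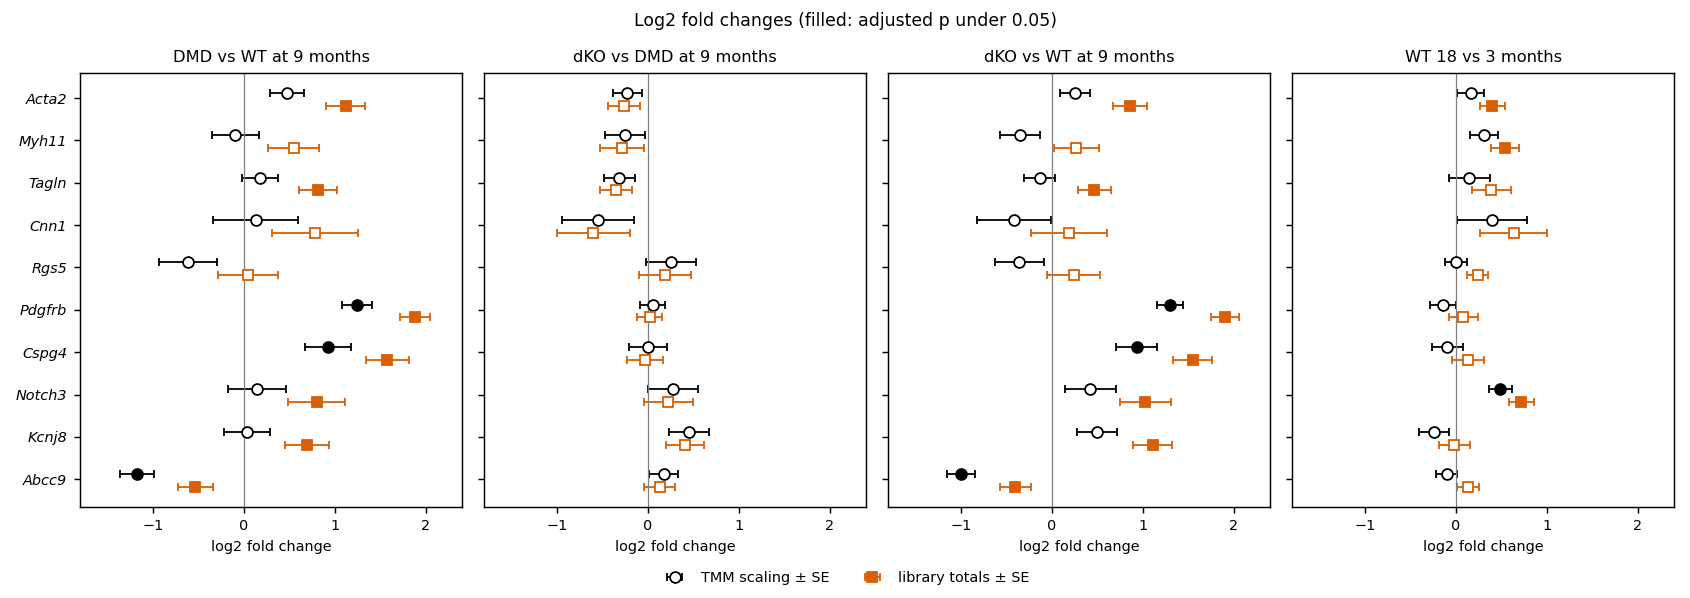
Log2 fold changes (x axis) of the 10 genes (rows) in 4 comparisons, by TMM scaling (circles) and by library totals (squares), with whiskers of 1 SE; filled symbols had an adjusted p under 0.05. Pdgfrb and Cspg4 lie right of 0 and Abcc9 left of 0 against WT at 9 months, no symbol is filled in dKO against DMD, and by TMM only Notch3 is filled in 18 against 3 months.

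Levels of different genes were compared on TPM, which is per length. In WT muscle of 9 months Rgs5 led at 222 ± 43.3 TPM, followed by Tagln at 165 ± 23.3 TPM and Acta2 at 109 ± 20.6 TPM (SD, n = 3). Abcc9 (34.0 ± 4.30 TPM) and Myh11 (23.7 ± 4.43 TPM) came next, and Notch3, Pdgfrb, Cnn1 and Kcnj8 lay between 7.62 and 11.6 TPM. Cspg4 was the lowest member, at 2.67 ± 1.04 TPM. These 3 genes led and Cspg4 was lowest in all 5 groups, although the order of the 3 differed in DMD muscle. Pdgfrb changed its place: it ranked 4 of 10 in dKO (45.8 ± 6.31 TPM, n = 6) and in DMD muscle (45.0 ± 2.29 TPM, n = 3), and 7 of 10 in WT muscle of 9 months (11.1 ± 1.16 TPM, n = 3).

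**Figure D2:**
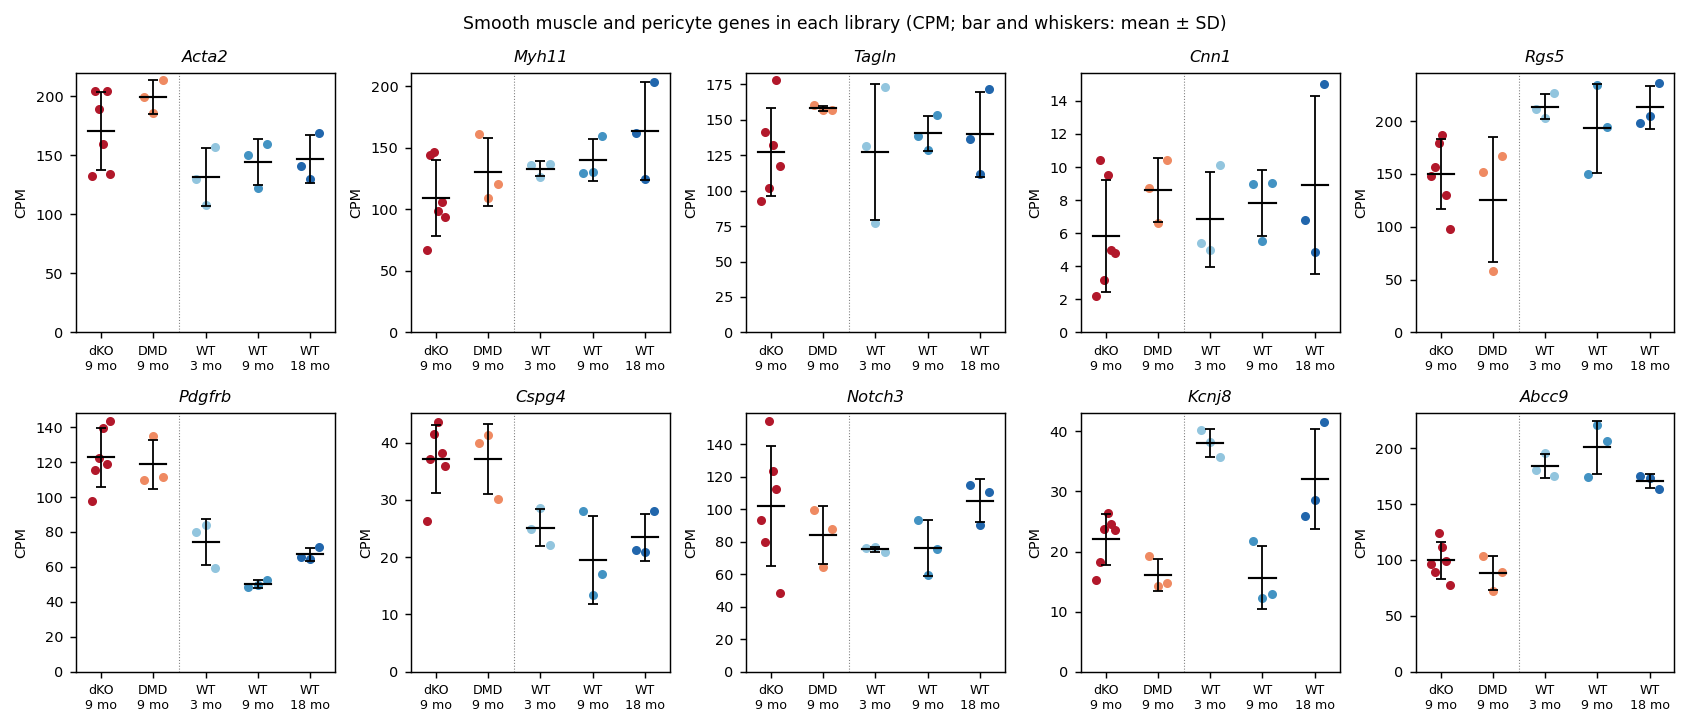
CPM (y axis, from 0) of each gene in each library, in 5 groups along the x axis, with group means and SD as bars and whiskers (n = 6 for dKO, 3 for the others). For Pdgfrb all 9 dystrophic libraries stand above all 9 WT libraries, from 97.5 CPM up against 84.0 CPM at most, and for Abcc9 they all stand below them.

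Acta2 (ENSRNOG00000058039) encodes the main actin of vascular smooth muscle. It measured 133, 205, 189.5, 160.0, 204 and 134 CPM in dKO libraries, 199, 186 and 214 CPM in DMD libraries, and 150.1, 123 and 159.9 CPM in WT libraries of 9 months. All 3 DMD libraries lay above all 3 WT libraries, while dKO libraries reached down into the WT range. The log2 fold change was 0.25 ± 0.17 in dKO (edgeR adjusted p = 0.23) and 0.47 ± 0.19 in DMD against WT (edgeR adjusted p = 0.052), so neither passed. The DMD value sat at the threshold: it passed under 6 of 11 alternative settings and in 3 of 12 fits with a library left out. The 6 settings were library totals, both TPM scales, a filter of 5 CPM in 3 libraries (edgeR adjusted p = 0.039), only the groups compared (0.46, adjusted p = 0.032) and 1 fit of all 18 libraries (0.47, adjusted p = 0.041). The 3 fits were those without dKO replicate 1, 2 or 6 (adjusted p = 0.038, 0.049 and 0.042), libraries that are not part of this contrast but share its fit. It did not pass by RLE scaling (edgeR adjusted p = 0.069) or by DESeq2 (adjusted p = 0.056). With a library left out the edgeR adjusted p reached 0.18.

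SRF, the transcription factor that drives contractile genes together with myocardin, binds a motif known as the CArG box, and the start of Acta2 is shown because it holds motifs like it. RefSeq promoter entries (build GRCr8) matched 7 of the 10 members, with none for Myh11, Tagln or Pdgfrb. A CArG-like match, allowing 1 G or C in the A/T core and searched on both strands, occurred 2 times in the 250 bases before the start of Acta2 and not in the same window of Cnn1, Rgs5, Cspg4, Notch3, Kcnj8 or Abcc9. Of 33469 rat promoters 8.08% held such a match in that window, and 1.5% held one with no G or C in the core. The Acta2 window held none of the latter kind, and each of its matches had 1 G or C in the core. The Acta2 window lies at chr1:241172504-241172753 on the minus strand of GRCr8, and the capitals mark the matches, at 134 to 125 and at 84 to 75 bases before the start.
Acta2: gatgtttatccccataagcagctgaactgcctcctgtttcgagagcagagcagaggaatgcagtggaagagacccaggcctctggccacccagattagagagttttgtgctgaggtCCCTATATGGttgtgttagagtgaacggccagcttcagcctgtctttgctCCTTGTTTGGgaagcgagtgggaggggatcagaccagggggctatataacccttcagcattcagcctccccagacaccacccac
A match in the letters is a description, and binding was not measured.

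Myh11 (ENSRNOG00000057880), the gene most restricted to smooth muscle among these, did not pass in either dystrophic group. It measured 66.8, 144, 147, 98.3, 106 and 93.5 CPM in dKO, 162, 109 and 121 CPM in DMD and 129, 131 and 159.7 CPM in WT libraries of 9 months. The groups overlapped, and the log2 fold changes were -0.35 ± 0.22 in dKO and -0.09 ± 0.26 in DMD against WT (edgeR adjusted p = 0.21 and 0.79).

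Tagln (ENSRNOG00000017628) measured 92.5, 142, 102, 133, 178 and 117 CPM in dKO, 160.2, 157 and 157 CPM in DMD and 139, 129 and 153 CPM in WT libraries of 9 months. The DMD libraries lay close together above all 3 WT libraries, while the dKO libraries spread on both sides of them. Its log2 fold changes were small, -0.14 ± 0.17 in dKO and 0.18 ± 0.20 in DMD against WT (edgeR adjusted p = 0.54 and 0.49), and the sign in dKO turned positive by library totals (0.47, adjusted p = 0.034). Cnn1 (ENSRNOG00000027736) was the thinnest of the contractile genes, at 2.18 to 10.5 CPM in dKO (median 4.90 CPM), 6.62 to 10.4 CPM in DMD and 5.54 to 9.01 CPM in WT libraries. Its log2 fold changes of -0.42 ± 0.41 in dKO and 0.13 ± 0.47 in DMD against WT did not pass (edgeR adjusted p = 0.41 and 0.84), and small changes were not detectable with an SE of this size.

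Within a library, Acta2 was higher relative to Myh11 in dystrophic muscle. Acta2 reads per Myh11 read numbered 1.61 ± 0.29 in dKO, 1.57 ± 0.29 in DMD and 1.03 ± 0.11 in WT libraries of 9 months (SD, n = 6, 3 and 3). The lowest dystrophic ratio, 1.23 in DMD replicate 1, lay above the highest WT ratio, 1.16, of all 3 ages. Tagln reads per Acta2 read were fewer in dystrophic muscle, 0.750 ± 0.132 in dKO and 0.794 ± 0.058 in DMD, than in WT libraries of 9 months, where they were 0.978 ± 0.064. WT libraries of 3 months (0.713 to 1.10) and of 18 months (0.858 to 1.01) overlapped the dystrophic ones, which reached 0.875. The pairs of genes were picked after their values were seen, so these ratios are descriptions, and a ratio shows unequal change without saying which gene changed.

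**Figure D3:**
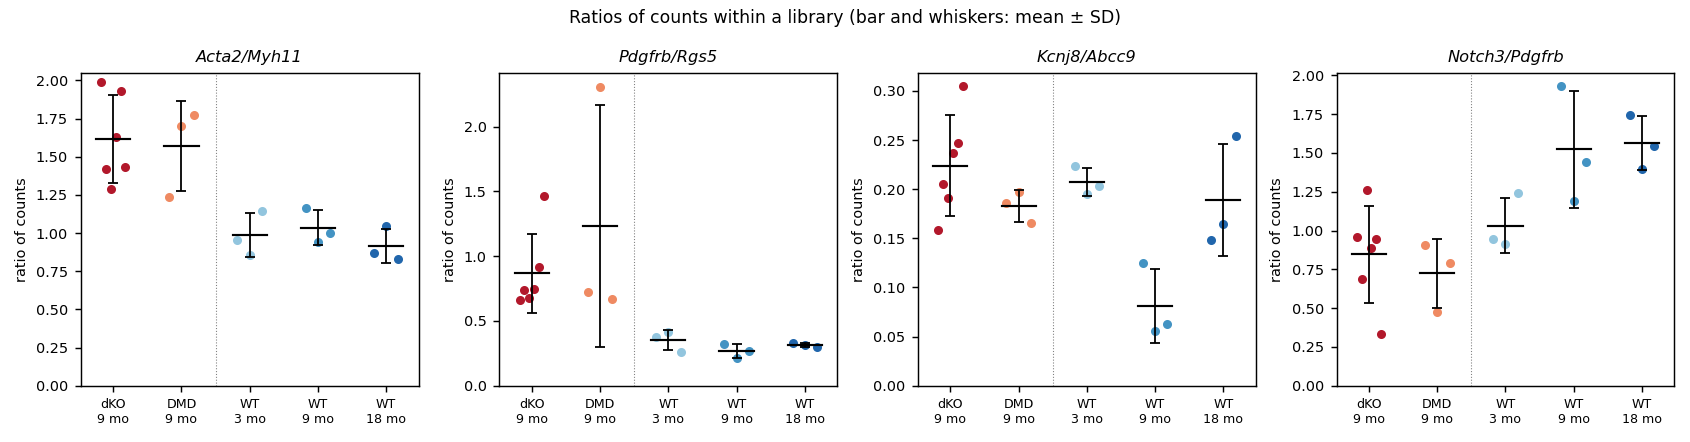
Ratios of counts within each library (y axis, from 0) for 4 pairs of genes, in 5 groups along the x axis, with group means and SD. Acta2/Myh11 and Pdgfrb/Rgs5 are higher in every dystrophic library than in every WT library, and Kcnj8/Abcc9 is lowest in WT muscle of 9 months.

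Pdgfrb (ENSRNOG00000018461), the receptor that binds PDGF-BB and recruits pericytes, rose in both dystrophic groups, with the smallest p of the 10 members. It measured 97.5, 116, 122, 139, 119 and 144 CPM in dKO, 109.6, 135 and 112 CPM in DMD and 48.4, 49.8 and 52.5 CPM in WT libraries of 9 months. Every dystrophic library lay above every WT library. The log2 fold change was 1.3 ± 0.15 in dKO and 1.25 ± 0.16 in DMD against WT (edgeR adjusted p = 6.3e-06 and 2.5e-05).

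Cspg4 (ENSRNOG00000017208), whose NG2 proteoglycan marks pericytes, also rose. It measured 26.4, 37.1, 41.5, 43.7, 38.2 and 36.0 CPM in dKO, 40.0, 41.2 and 30.1 CPM in DMD and 28.1, 13.4 and 17.0 CPM in WT libraries of 9 months. WT replicate 1 was high within its group and overlapped dKO replicate 1, but no DMD library. The log2 fold change was 0.93 ± 0.22 in dKO and 0.93 ± 0.25 in DMD against WT (edgeR adjusted p = 0.0029 and 0.0066). Cspg4 overlaps Odf3l1 in RefSeq GRCr8, which held 5 to 35 counts in dKO, 32 to 49 in DMD and 0 in WT libraries of 9 months, beside at least 99 counts of Cspg4 in every library. The strand setting is not given in the sources used here, so reads of the 2 genes cannot be told apart where they overlap.

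Notch3 (ENSRNOG00000004346), a receptor that mural cells need to mature, did not pass in either group and varied widely. It measured 93.1, 79.6, 154, 123, 112 and 48.3 CPM in dKO, 99.5, 64.3 and 88.0 CPM in DMD and 93.6, 59.4 and 75.7 CPM in WT libraries of 9 months. The dKO group held both the highest and the lowest of these values. The log2 fold changes of 0.42 ± 0.28 in dKO and 0.14 ± 0.32 in DMD did not pass (edgeR adjusted p = 0.23 and 0.74). Without dKO replicate 6, the lowest library, the dKO value was 0.56 and passed narrowly (adjusted p = 0.0496). That was 1 of 12 fits with a library left out, and it alone passed, with an edgeR adjusted p of up to 0.53 among them. Notch3 reads per Pdgfrb read came to 0.845 ± 0.310 in dKO, 0.725 ± 0.223 in DMD and 1.52 ± 0.377 in WT libraries of 9 months (SD, n = 6, 3 and 3). The dKO libraries (0.336 to 1.26) overlapped WT libraries of 9 months (1.19 to 1.93) and of 3 months (0.911 to 1.24).

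Rgs5 (ENSRNOG00000002730), the most abundant pericyte gene here, did not pass in either group. It measured 148, 157, 179.7, 187, 130.2 and 98.2 CPM in dKO, 152, 58.5 and 167 CPM in DMD and 150.2, 234 and 195 CPM in WT libraries of 9 months. DMD replicate 2 was far below the other 2 DMD libraries. The log2 fold changes were -0.36 ± 0.27 in dKO and -0.61 ± 0.32 in DMD against WT (edgeR adjusted p = 0.29 and 0.13), and by library totals they were 0.24 and 0.05. Without DMD replicate 2 the DMD value was -0.26 (edgeR adjusted p = 0.41). Pdgfrb reads per Rgs5 read ran from 0.660 to 1.46 in dKO, from 0.667 to 2.31 in DMD and from 0.213 to 0.322 in WT libraries of 9 months, with no overlap.

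Abcc9 (ENSRNOG00000036960), the regulatory SUR2 subunit, was the one member that fell. It measured 96.8, 89.3, 124, 111, 99.5 and 77.6 CPM in dKO, 103, 72.2 and 89.5 CPM in DMD and 174, 221 and 207 CPM in WT libraries of 9 months. The dystrophic and WT libraries did not overlap. The log2 fold change was -1.0 ± 0.16 in dKO and -1.18 ± 0.19 in DMD against WT (edgeR adjusted p = 9.3e-05 and 0.00013). The call depended on scale: on log2(TPM + 1) the values were -0.25 in dKO and -0.41 in DMD (limma adjusted p = 0.22 and 0.098).

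Its partner Kcnj8 (ENSRNOG00000013463), the Kir6.1 pore, lies next to Abcc9 on chromosome 4 with 0 protein-coding genes between them in RefSeq, and did not pass in either group. Kcnj8 measured 15.3, 18.3, 23.8, 26.4, 24.6 and 23.6 CPM in dKO, 19.2, 14.2 and 14.8 CPM in DMD and 21.7, 12.3 and 13 CPM in WT libraries of 9 months. WT replicate 1 stood above the other 2 WT libraries and inside the dystrophic range. The log2 fold changes were 0.49 ± 0.22 in dKO and 0.04 ± 0.25 in DMD against WT (edgeR adjusted p = 0.078 and 0.92). The dKO value depended on single libraries: in 12 fits with a library left out it ran from 0.35 to 0.81, with an edgeR adjusted p of up to 0.28. It passed in 2 of them, at 0.81 without WT replicate 1 (adjusted p = 0.012) and at 0.58 without dKO replicate 1 (adjusted p = 0.031). Kcnj8 reads per Abcc9 read numbered 0.224 ± 0.051 in dKO, 0.183 ± 0.016 in DMD and 0.081 ± 0.038 in WT libraries of 9 months.

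Both channel genes outside the mural set fell as well. Kcnj11, the Kir6.2 pore used by muscle fibres, stood at 55.5 ± 15.4 CPM in dKO, 49.1 ± 17.4 CPM in DMD and 279.8 ± 51.2 CPM in WT muscle of 9 months, with log2 fold changes of -2.33 ± 0.23 and -2.51 ± 0.29 in dKO and DMD (edgeR adjusted p = 2.0e-06 and 1.0e-05). Abcc8, the SUR1 subunit, was scarce at 1.76 ± 0.66 CPM in dKO, 0.95 ± 0.62 CPM in DMD and 16.2 ± 4.26 CPM in WT muscle, and changed by -3.21 ± 0.37 and -4.04 ± 0.50 (edgeR adjusted p = 7.5e-06 and 1.7e-05). Of the 4 channel genes 3 fell and Kcnj8 did not pass in either comparison. Over all genes 22.7% passed as lower in dKO and 21.8% in DMD muscle. Muscle fibre markers moved with Abcc9: beside these shares, all 8 that were tested fell in both. Their median log2 fold change was -1.68 in dKO and -1.77 in DMD. Their summed level was 49457 to 89715 TPM in dKO, 57502 to 73892 TPM in DMD and 92613 to 109614 TPM in WT libraries, and their part in the fall of Abcc9 was not tested.

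**Figure D4:**
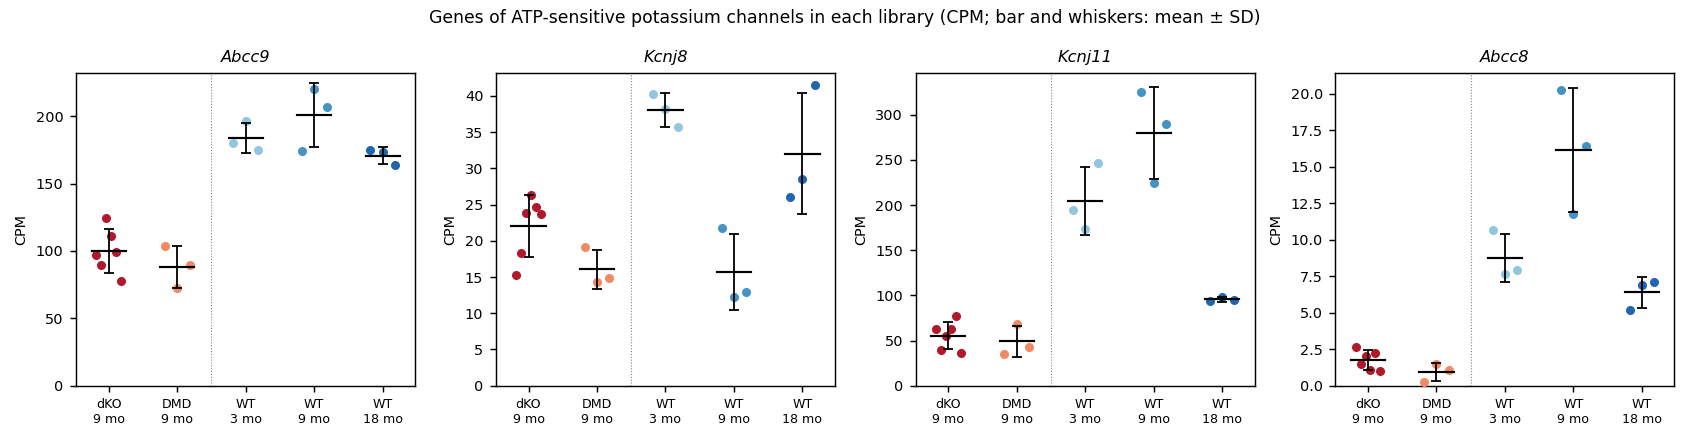
CPM (y axis, from 0) of the 4 ATP-sensitive potassium channel genes in each library, in 5 groups along the x axis, with group means and SD. Abcc9, Kcnj11 and Abcc8 are lower in every dystrophic library than in every WT library, and Kcnj8 in dystrophic muscle overlaps its level in WT muscle of 9 months.

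Between the dystrophic groups no member passed. Of all 14801 genes 1 did (0.00676%), which fell and was no member. At an unadjusted p under 0.05 there were 0 members by edgeR and 1 by DESeq2, which was Kcnj8. The change of Kcnj8 was the largest rise among the members, at 0.45 ± 0.22 in dKO against DMD (edgeR adjusted p = 0.92). All 4 contractile genes had negative values, -0.22 ± 0.16 for Acta2, -0.25 ± 0.22 for Myh11, -0.31 ± 0.17 for Tagln and -0.55 ± 0.40 for Cnn1. Pdgfrb (0.05 ± 0.14) and Cspg4 (0.00 ± 0.21) were nearest to 0, and every member had dKO and DMD libraries that overlapped. These values do not show that p16 loss leaves the genes alike, since Cnn1, Rgs5 and Notch3 had an SE of 0.40, 0.28 and 0.28.

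Age was compared between WT muscle of 18 and of 3 months, where 19.4% of 13487 genes passed, 9.31% higher and 10.1% lower. Of the 10 members 1 passed, Notch3, which rose. It measured 115, 90.0 and 110.5 CPM at 18 months and 75.8, 76.5 and 73.6 CPM at 3 months, with no overlap, and its log2 fold change was 0.49 ± 0.13 (edgeR adjusted p = 0.015). The call was not firm: it was lost without 18-month replicate 1 (0.42, adjusted p = 0.082) or replicate 3 (0.46, adjusted p = 0.054), and in 1 fit of all 18 libraries (0.48, adjusted p = 0.31). Myh11 came nearest of the rest at 0.30 ± 0.16 (edgeR adjusted p = 0.20), with 162, 125 and 204 CPM at 18 months and 136, 126 and 137 CPM at 3 months. Rgs5 (0.00 ± 0.12), Abcc9 (-0.10 ± 0.12), Cspg4 (-0.10 ± 0.17) and Pdgfrb (-0.14 ± 0.15) had values within 1 SE of 0. By library totals 24.2% of all genes passed, 19.3% higher and 4.83% lower, and Acta2 (0.40) and Myh11 (0.53) joined Notch3, with the median of all genes at 0.24. On log2(TPM + 1) 25.7% of all genes passed and 4 members, these 3 and Rgs5 (0.34).

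WT muscle of 9 months belongs to the other comparison, so its levels are set beside the other ages without a test. Pdgfrb averaged 74.5 ± 13.2 CPM at 3 months, 50.2 ± 2.06 CPM at 9 months and 67.2 ± 3.70 CPM at 18 months. Kcnj8 averaged 38.1 ± 2.33, 15.7 ± 5.27 and 32.0 ± 8.36 CPM at these ages. For both genes every 9-month library lay below every library of the other 2 ages in CPM. On TPM this held for Kcnj8, while Pdgfrb at 9 months (10.2 to 12.4 TPM) overlapped 3 months (10.8 to 18.8 TPM). Kcnj8 reads per Abcc9 read likewise numbered 0.207 ± 0.015, 0.081 ± 0.038 and 0.189 ± 0.057 at 3, 9 and 18 months. Measured in CPM against WT muscle of 3 or 18 months, Kcnj8 was thus lower in DMD muscle (16.1 ± 2.7 CPM) without overlap, whereas against 9 months it was not. On TPM the DMD libraries (10.64 to 16.43 TPM) overlapped 3 months (14.64 to 20.68 TPM). They lay just below 18 months (16.49 to 24.21 TPM) and just above 9 months (5.65 to 10.49 TPM). Whether 9-month libraries were prepared apart from the others is not given in the labels.

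After each group's mean was removed, the contractile genes varied together across libraries. Pearson's r of the deviations over 18 libraries lay between 0.400 and 0.752 (median 0.656) for the 6 pairs among Acta2, Myh11, Tagln and Cnn1, and between -0.362 and 0.836 (median 0.273) for the other 39 pairs. The highest value was that of Cspg4 with Kcnj8, at 0.836, and Rgs5 with Abcc9 followed at 0.766. Kcnj8 and Abcc9 had an r of 0.02 although they are neighbours on the chromosome and subunits of 1 channel. Pairs share libraries and depth, and these values are descriptions.

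**Figure D5:**
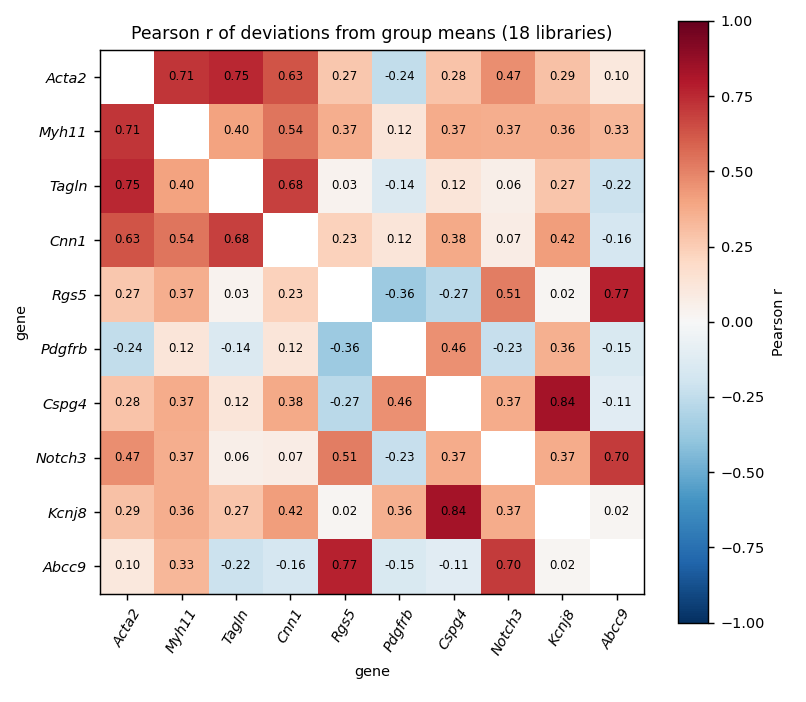
Pearson's r between each pair of the 10 genes (rows and columns), computed on log2 CPM after the mean of each group was removed, over 18 libraries; colour and printed numbers both give r. The block of 4 contractile genes at the upper left holds values from 0.40 to 0.75, and Cspg4 with Kcnj8 has the highest value, 0.84.

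Over all 18 libraries, with group differences kept, 9 members are given with their closest companions in log2 CPM. Pdgfrb was most like Bmp1 (r = 0.961), a protease that matures procollagen, and Col16a1 (0.952), a collagen gene. Cspg4 was most like Chpf (0.925), which builds chondroitin chains, and Kctd17 (0.923). Abcc9 was most like Marchf6 (0.976) and Pdpr (0.970), Rgs5 like Lifr (0.926) and Ptprg (0.924), and Notch3 like Lrp5 (0.866) and Ntn4 (0.828). Among the contractile genes, Acta2 had Cobll1 (0.831) and Csrp1 (0.813), Tagln had Actg2 (0.688) and Adora2a (0.667), and Cnn1 had Actg2 (0.694) and Sox7 (0.645). Kcnj8 was most like Ino80b (0.814) and Dok4 (0.799). Actg2, the gamma-actin of visceral smooth muscle, was thus first for both Tagln and Cnn1.

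The counts of the following lists are to be read beside the shares over all genes, 27.5% higher and 22.7% lower in dKO against WT, 26.4% and 21.8% in DMD against WT, and 9.31% and 10.1% in 18 against 3 months. Of 24 other contractile genes of smooth muscle tested in dKO against WT 7 rose and 6 fell, with a median log2 fold change of -0.04, and of 24 tested in DMD against WT 8 rose and 6 fell, with a median of 0.18, beside a median of 0.11 over all genes in both. These counts are near the shares over all genes. Cnn2, a calponin of many cell types, rose by 0.83 ± 0.18 in dKO and 1.44 ± 0.20 in DMD (edgeR adjusted p = 0.0015 and 5.0e-05). Lmod1, a leiomodin, had -1.97 ± 0.23 in dKO and -1.76 ± 0.28 in DMD, and Synpo2 and Tpm2, which muscle fibres also use, had -1.46 ± 0.18 and -1.36 ± 0.20 in dKO and -1.36 ± 0.22 and -1.34 ± 0.24 in DMD (edgeR adjusted p between 7.0e-06 and 0.00037 for these 3 genes). In 18 against 3 months 3 rose and 4 fell.

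Among 25 other pericyte genes tested, 9 rose and 2 fell in dKO against WT, and 9 rose and 3 fell in DMD against WT, with medians of 0.37 and 0.38 beside 0.11 over all genes. Nothing particular to the list can be read from these counts. Anpep, an aminopeptidase that pericytes and fibroblasts carry, rose by 1.97 ± 0.22 in dKO and 1.90 ± 0.23 in DMD (edgeR adjusted p = 5.0e-06 and 1.7e-05). Olfml2b rose by 1.24 ± 0.17 and 1.16 ± 0.19 (edgeR adjusted p = 3.5e-05 and 0.00017), and Agtr1a, an angiotensin receptor, by 0.72 ± 0.23 in dKO and 1.41 ± 0.26 in DMD (edgeR adjusted p = 0.017 and 0.00046). The 3 that fell in DMD against WT were Gucy1b1, Ndufa4l2 and Angpt1. They had -1.17 ± 0.36, -0.87 ± 0.27 and -0.79 ± 0.28 there (edgeR adjusted p = 0.014, 0.015 and 0.031). With age, 1 rose and 3 fell.

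Of 18 tested partners of Pdgfrb and Notch3 6 rose and 3 fell in dKO against WT, and 6 rose and 2 fell in DMD against WT, with medians of 0.02 and 0.31. Pdgfb, the ligand of Pdgfrb, had log2 fold changes of -0.54 ± 0.21 in dKO, which passed, and -0.47 ± 0.24 in DMD, which did not (edgeR adjusted p = 0.040 and 0.12). Pdgfd, another ligand, rose by 1.06 ± 0.32 and 1.12 ± 0.35 (edgeR adjusted p = 0.012 and 0.016). Jag1, a Notch ligand, rose by 0.78 ± 0.20 and 1.0 ± 0.23, and Notch2 by 1.56 ± 0.18 and 1.63 ± 0.19 (edgeR adjusted p = 0.0049 and 0.0021, and 6.3e-06 and 1.3e-05), while the Notch target Heyl did not pass (-0.18 ± 0.21 and -0.52 ± 0.24). The 2 partners that fell in DMD against WT were the Notch ligand Jag2 and the Notch target Hey1. They had -0.53 ± 0.18 and -0.63 ± 0.23 there (edgeR adjusted p = 0.027 and 0.036). With age, beside the rise of Notch3, Pdgfb fell by 0.75 ± 0.14 on the log2 scale, and Nrarp and Dll4 fell by 0.64 ± 0.18 and 0.48 ± 0.16 (edgeR adjusted p = 0.0017, 0.023 and 0.049).

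Of 10 tested regulators of the contractile genes 2 rose and 4 fell in dKO against WT, and 2 rose and 2 fell in DMD against WT, with medians of -0.37 and -0.23. Srf had -0.56 ± 0.17 in dKO, which passed, and -0.35 ± 0.20 in DMD, which did not (edgeR adjusted p = 0.012 and 0.16), and Myocd, the coactivator myocardin, had -1.18 ± 0.49 and -1.47 ± 0.60 (edgeR adjusted p = 0.058 and 0.054). Fhl2 rose by 3.14 ± 0.27 and 3.26 ± 0.29, and Klf5 by 2.42 ± 0.26 and 2.67 ± 0.28 (edgeR adjusted p at most 4.9e-06). The 2 that fell in DMD against WT were Smad3 at -1.46 ± 0.20 and Tead1 at -1.55 ± 0.22 (edgeR adjusted p = 4.3e-05 and 5.0e-05). Among the actin paralogues of Acta2, Actc1 of developing and cardiac muscle rose by 4.10 ± 0.32 and 3.55 ± 0.33, Acta1 of adult fibres had -1.28 ± 0.29 and -1.40 ± 0.35, and Actg2 had 0.15 ± 0.35 and 0.60 ± 0.40 and did not pass. The counts of Acta2, Acta1, Actc1 and Actg2 were whole numbers in all 18 libraries, so no reads were shared out by fractions between them.

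Markers of the other cells in muscle moved beside these genes. Fibroblast markers rose with Pdgfrb and Cspg4: 10 of 11 tested passed in both comparisons, with medians of 1.37 in dKO and 1.52 in DMD, and their summed level was 4234 to 6780 TPM in dKO, 3291 to 6137 TPM in DMD and 1097 to 1222 TPM in WT libraries of 9 months. Pdgfra, the fibroblast receptor related to Pdgfrb, rose by 1.95 ± 0.24 in dKO and 1.89 ± 0.26 in DMD (edgeR adjusted p = 1.1e-05 and 3.4e-05), and Pdgfrb reads per Pdgfra read came to 0.700 ± 0.140, 0.729 ± 0.301 and 1.07 ± 0.11 in dKO, DMD and WT libraries. The part of fibroblasts in the rise of Pdgfrb and Cspg4 was not tested. Endothelial markers, of which 11 of 14 were found and tested, gave 2 rises and 3 falls in dKO and 0 rises and 3 falls in DMD by TMM. Their medians were -0.03 and 0.02. Their summed levels were 844 to 1076 TPM in dKO, 875 to 1033 TPM in DMD and 827 to 857 TPM in WT libraries of 9 months. The scales differed: in DMD muscle the TMM calls were falls, while every TPM sum lay above every WT sum. On log2(TPM + 1) the median change of all genes was 0.64 in both comparisons. All 9 macrophage markers rose in both, as did 7 and 6 of 7 regenerating fibre markers and 4 of 5 adipocyte markers, and 2 of 6 Schwann cell markers rose. None of these lists had a marker at 0 in all libraries of a group. At 18 against 3 months all 9 macrophage and all 7 regenerating fibre markers rose and 6 of 8 fibre markers fell beside the rise of Notch3, and their part in it was not tested.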

How the data were processed

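The authors deposited expected counts per gene, estimated with RSEM, and TPM values, which are scaled for length and depth. The build was mRatBN7.2 and the tools were STAR 2.7.10b, RSEM 1.3.3, FastQC and Trimmomatic, per the submitters' processing notes. Per the labels' protocols, RNA was purified with an RNeasy mini kit and libraries were made with a TruSeq kit at BGI. Neither the annotation release nor the strand setting is given in the sources used here.

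Counts, of which 4.50% had a fraction, were rounded. Genes were filtered with filterByExpr, scaled by TMM and tested with edgeR 4.0.16 in R 4.3.3 (quasi-likelihood, Benjamini-Hochberg over all tested genes, threshold 0.05). The 12 libraries of 9 months shared 1 fit of 14801 genes with a biological coefficient of variation of 0.260, and WT of 3 and 18 months another of 13487 genes with 0.176. The SE was derived from the fold change and its F statistic. CPM used TMM factors over 18 libraries. The depth of a library limits the precision of low genes such as Cnn1.

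All members are named, for each the 2 genes with the highest Pearson's r in log2 CPM (among genes with a mean of 2 or more), and from each other list up to 4 genes with the smallest p in DMD against WT. Genes of the actin, potassium channel, PDGF and Notch and SRF lists may be named freely. The pericyte genes that fell in DMD against WT are named as well. A result that this rule calls for is not reported here. The members and lists were chosen with earlier results of these data known. Alternatives were RLE scaling, library totals, DESeq2 1.42.0, limma 3.58.1 on log2(TPM + 1) and log2(TPM + 0.1), no low-count filter, 5 CPM in 3 libraries, only the groups compared, all 18 libraries in 1 fit, the 50 most abundant genes left out, a replicate block and each library left out. The steps were tested on simulated data. Replicates differed by more than counting error (chi-square per degree of freedom 12.5 to 83.7), so none was counted as a duplicate. Figures were drawn with matplotlib 3.10.9.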

Additional observations from a re-analysis of the deposited data

Results flagged for a closer look

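Among 20 checks of the 10 members in the 6 dKO libraries, on CPM and on TPM, 1 library stood apart from its group. Abcc9 was highest in dKO replicate 3, at 38.1 TPM, and the gap to the next library was a larger share of the group's range than 95% of such groups would show. Chance flags about 1 in 20 groups, which is the number seen. On CPM the same library, at 124, was not far from the next, at 111.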

How the results depend on the processing

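Of the members' log2 fold changes under the alternatives, 802 kept their side of the threshold, 38 newly passed, 7 no longer passed and 3 passed with the opposite sign. The 3 were Tagln in dKO against WT, at 0.47 by library totals, 0.60 on log2(TPM + 1) and 0.61 on log2(TPM + 0.1). Members that passed by library totals numbered 7 in DMD against WT, 7 in dKO against WT and 3 in 18 against 3 months, beside 60.3%, 63.0% and 24.2% of all genes. On log2(TPM + 1) the members that passed numbered 6, 6 and 4, beside 61.5%, 66.2% and 25.7% of all genes. Among the 802, 63 changed sign without passing on either side, 29 of them by library totals or TPM, such as Rgs5 in DMD against WT at 0.05 by totals. The median of all genes on log2(TPM + 1) was 0.64, 0.64 and 0.29 in these comparisons, so these values include a shift common to most genes. In 1 fit of all 18 libraries 0 members and 1742 genes passed in 18 against 3 months.

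In dKO against DMD 15 genes passed by DESeq2. With 1 library left out the number was 1 to 85 in dKO against DMD, with 85 without DMD replicate 1 and 2 without DMD replicate 3 or dKO replicate 2, and 0 members passed in each. The cause was not tested. In 18 against 3 months it was 1696 to 2415, lowest without 18-month replicate 1, and members numbered 0 to 1. Groups with a library left out had at least 2.

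The replicate numbers did not pair the libraries: among 12 same-numbered pairs the deviations had an r of -0.208 to 0.105, and 1 was over 0.1. With the number as a replicate block 0 genes passed in dKO against DMD, and the counts of members that passed did not change in any comparison.

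Depth was thinnest for Cnn1. Strain, sex and preparation batches are not given, and composition differs between muscle groups, so no scale is neutral.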
